A study of Mus musculus with 8 samples.

Results

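The 8 genes described here were Acta1, Actc1, Ankrd1, Csrp3, Xirp1, Xirp2, Fhl1 and Flnc, which encode sarcomeric actins and proteins of the Z-disc and I-band that respond to mechanical load. They were chosen by symbol from the 32285 genes listed in the count files, and all 8 were found once in each file. In the mm10 (GRCm38) mouse genome, Acta1 (ENSMUSG00000031972) lies at chr8:123891758-123894775, Actc1 (ENSMUSG00000068614) at chr2:114047282-114052875 and Ankrd1 (ENSMUSG00000024803) at chr19:36111965-36119844. Csrp3 (ENSMUSG00000030470) lies at chr7:48830398-48848051, Xirp1 (ENSMUSG00000079243) at chr9:120013755-120023598 and Xirp2 (ENSMUSG00000027022) at chr2:67446000-67526620. Fhl1 (ENSMUSG00000023092) lies at chrX:56731209-56793346 and Flnc (ENSMUSG00000068699) at chr6:29433153-29461889. The counts covered whole genes and did not separate exons, introns or untranslated regions.

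Spatial transcriptomes (10x Visium, in which each spot collects RNA from a small tissue region) and single-cell libraries were made from hearts of male wild-type C57BL/6J mice that were 8 weeks old at surgery. Mice had transverse aortic constriction (TAC), a surgical narrowing of the aortic arch that raises the pressure load on the left ventricle, or a sham operation. Hearts were taken 2, 4 or 6 weeks after TAC (called TAC-2w, TAC-4w, TAC-6w), and the time of the sham harvest was not given. Each condition had 1 section and 1 library, so that no difference between conditions could be set against replicate error, no test was made, and the intervals given cover counting error only. It was not stated whether a section or library came from 1 mouse or from several. By the labels, the sham and TAC-2w sections belonged to batch 1, TAC-4w to batch 2 and TAC-6w to batch 3. The TAC-2w section was therefore the only one that could be compared with sham within a batch, and for TAC-4w and TAC-6w the effects of batch and of time after surgery cannot be told apart.

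Cardiac muscle contracts by the sliding of myosin along actin filaments that are anchored in the Z-disc, a dense lattice that also carries tension between neighbouring sarcomeres and passes information on stretch to the nucleus. The fetal heart uses skeletal α-actin (Acta1) beside cardiac α-actin (Actc1), and re-use of Acta1 in the adult ventricle is a well-known part of the fetal gene program under pressure overload. Ankrd1 (CARP), Csrp3 (muscle LIM protein) and Fhl1 are titin- or Z-disc-associated proteins that can signal strain, Xirp1 and Xirp2 are actin-binding repeat proteins of the intercalated disc, and Flnc is the muscle filamin, an actin crosslinker at the Z-disc and the sarcolemma.

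The sections held 1676, 2063, 1228 and 2193 spots over tissue from sham to TAC-6w, with between 25996378 and 48754396 unique molecular identifiers (UMIs, each 1 captured transcript) per section and medians between 15488.5 and 27593 UMIs per spot. Mitochondrial transcripts took 51.5% of the sham UMIs and 42.2% to 44.2% in the TAC sections. The 6 cardiomyocyte markers summed to between 13611 and 19118 counts per 1000000 UMIs (CPM), whereas 8 fast skeletal muscle markers summed to between 2.58 and 3.63 and 4 atrial markers to between 1.54 and 2.47 in every section, and no spot was led by atrial genes. The TAC-4w section stood apart in the myosin heavy chains, with Myh7 (the slow, fetal isoform) at 7308 CPM against 41.9 in sham, 23.4 at TAC-2w and 97.1 at TAC-6w. The 6 neutrophil markers were also highest there (89.2 against 6.48 to 30.7 CPM), and the 6 red blood cell markers were lowest (3942 against 7616 to 13741). The part of these differences in the results for the 8 genes was not tested.

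The following stretches of genome are shown for the genes that differed most between sections, Acta1 and Ankrd1, and for the other sarcomeric actin, Actc1. The known letter patterns before their starts were shared in part. The 250 bases before the annotated start were taken from the RefSeq promoter table (GRCm38.p6) and are written on the strand of the gene, 5′ to 3′, with the motif matches in capitals. The stretches are chr8:123894776-123895025 for Acta1, chr2:114052876-114053125 for Actc1 and chr19:36119845-36120094 for Ankrd1, all on the minus strand.
Acta1: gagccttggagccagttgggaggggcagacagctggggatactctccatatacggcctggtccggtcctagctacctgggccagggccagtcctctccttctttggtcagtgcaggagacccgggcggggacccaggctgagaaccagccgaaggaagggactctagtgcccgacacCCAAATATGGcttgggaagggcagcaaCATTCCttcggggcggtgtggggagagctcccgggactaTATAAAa
Actc1: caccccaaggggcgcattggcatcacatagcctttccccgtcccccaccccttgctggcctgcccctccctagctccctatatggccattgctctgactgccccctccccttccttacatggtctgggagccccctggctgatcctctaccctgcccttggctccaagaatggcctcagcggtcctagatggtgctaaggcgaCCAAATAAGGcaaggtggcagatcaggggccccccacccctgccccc
Ankrd1: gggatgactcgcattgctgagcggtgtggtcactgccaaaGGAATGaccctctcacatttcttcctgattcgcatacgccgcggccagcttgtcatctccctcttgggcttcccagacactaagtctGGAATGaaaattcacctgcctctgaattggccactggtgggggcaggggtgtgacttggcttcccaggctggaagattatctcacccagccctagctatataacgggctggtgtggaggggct
The capitals in the Acta1 stretch mark a CArG box (the site known for serum response factor) and then the MCAT motif (GGAATG, the site known for TEAD factors, here on the other strand). They also mark the letters TATAAA, 7 to 2 bases before the listed start. Actc1 had a CArG box and neither of the other patterns, and Ankrd1 had 2 MCAT motifs and neither a CArG box nor TATAAA. The Ankrd1 stretch does hold the letters tatataa toward its end, a form that was not searched. Motifs were searched on both strands, with GGAATG for MCAT and only the exact letters TATAAA for a TATA box, and none of the matches shown overlapped another. Of 32841 windows of this length in the table, 12.6% held an MCAT motif and 1.02% held at least 2, 1.47% held a CArG box and 12.4% held TATAAA. Of the other members with an entry, Fhl1 had a CArG box and, on the other strand, TATAAA before its first listed start, Flnc had 1 MCAT motif before its second listed start, and Csrp3 and Xirp2 had no match in these windows. A match describes letters only, no binding was measured, and the relation of the motifs to the levels was not tested.

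Acta1 had the widest range of levels of the 8 genes. Its level, the summed UMIs per 1000000 UMIs of the section (CPM), was 109.9 in sham (95% interval 105.9 to 114), 199 at TAC-2w (195 to 203) and then 1286 at TAC-4w (1273 to 1298) and 3370.3 at TAC-6w (3354 to 3387). The level was thus higher in each later section, 1.81-fold above sham at TAC-2w (1.73 to 1.89, within the batch) and then 11.7-fold at TAC-4w (11.3 to 12.2) and 30.7-fold at TAC-6w (29.6 to 31.8). TAC-6w exceeded TAC-4w 2.62-fold (2.59 to 2.65). In whole spots, more cells that use a gene and more of its RNA in each cell cannot be told apart.

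Actc1, the main actin of the adult heart, kept within a narrow range. Its levels were 5322 CPM in sham, 6414 at TAC-2w and 6839 at TAC-6w, with 5244 at TAC-4w between them in time. The ratio to sham was 1.21 at TAC-2w (1.198 to 1.213) and then 0.985 at TAC-4w (0.978 to 0.992) and 1.28 at TAC-6w (1.28 to 1.29), where the value at TAC-4w became 1.08 with the UMIs of 10 cardiomyocyte genes as the total and 1.02 as a mean over spots. Acta1 took 2.02% (1.95 to 2.10) of the UMIs of both sarcomeric actins in sham, 3.01% (2.95 to 3.07) at TAC-2w and then 19.7% (19.5 to 19.9) at TAC-4w and 33.0% (32.9 to 33.1) at TAC-6w. This share needs no scaling to the total. The actins encode nearly identical proteins, and the treatment of reads that match both genes was not given in the sources used here.

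Ankrd1, a nuclear and titin-bound strain sensor, was lower at TAC-2w than in sham and more than 5-fold higher in both later sections. Its levels were 209 CPM in sham and 134 at TAC-2w, against 1119.7 at TAC-4w and a similar 1087 at TAC-6w. The ratios to sham were 0.641 (0.618 to 0.664), 5.36 (5.21 to 5.52) and 5.21 (5.06 to 5.35). Acta1 and Ankrd1 therefore differed from sham in opposite directions at TAC-2w, within a batch, and in the same direction at TAC-4w and TAC-6w. TAC-4w exceeded TAC-6w by a ratio of 1.03 (1.02 to 1.04), and the order of these sections turned when mitochondrial and rRNA-like transcripts were left out of the total or spots were given equal weight.

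The LIM domain proteins Csrp3 and Fhl1 were both higher in the later sections than in sham. Csrp3 had 1061 CPM in sham, 1252 at TAC-2w and then 1562 at TAC-4w and 1605 at TAC-6w, which gave ratios to sham of 1.18 (1.16 to 1.197), 1.47 (1.45 to 1.49) and 1.51 (1.49 to 1.53). TAC-6w exceeded TAC-4w by a ratio of only 1.03 (1.02 to 1.04), and the order turned under the median of ratios and with cardiomyocyte genes as the total. Fhl1, which binds titin and takes part in hypertrophic signalling, had 54.1, 57.0, 113 and 74.6 CPM in the same order. Its level at TAC-4w was 2.09-fold that of sham (1.97 to 2.23) and 1.52-fold that at TAC-6w (1.45 to 1.59), and at TAC-2w its interval reached 1 (1.05, 0.988 to 1.12).

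The intercalated disc genes Xirp1 and Xirp2 also parted at TAC-6w. Xirp1 had 63.7 CPM in sham, 63.2 at TAC-2w and then 109 at TAC-4w and 71.8 at TAC-6w, and Xirp2 had 108, 110.4, 175 and 212. Neither differed from sham at TAC-2w beyond counting error, with ratios of 0.991 (0.933 to 1.05) and 1.02 (0.974 to 1.07). At TAC-4w the ratios were 1.71 (1.61 to 1.82) for Xirp1 and 1.62 (1.55 to 1.69) for Xirp2. At TAC-6w Xirp2 was higher still, at 1.96 (1.88 to 2.04), whereas Xirp1 was at 1.13 (1.06 to 1.19), a value that fell below 1 when mitochondrial and rRNA-like transcripts were left out (0.977) or sections were scaled by the median of ratios (0.931).

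Flnc, the filamin that links actin to the Z-disc, had 84.5 CPM in sham, 68.8 at TAC-2w and then 151 at TAC-4w and 144 at TAC-6w. Like Ankrd1 it was below sham at TAC-2w (0.815, 0.772 to 0.860) and above it in the later sections, at 1.79 (1.70 to 1.88) and 1.70 (1.62 to 1.79). The levels at TAC-4w and TAC-6w lay close together (ratio 1.05, 1.01 to 1.09).

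By section of highest level, Acta1, Actc1, Csrp3 and Xirp2 were highest at TAC-6w, and Ankrd1, Xirp1, Fhl1 and Flnc at TAC-4w. Of 12110 genes with at least 50 UMIs in a section, 50% were highest at TAC-6w, 31.9% at TAC-4w, 13.3% at TAC-2w and 4.73% in sham, so that the split of the 8 genes into 4 and 4 gave 50% at either time. Acta1, Xirp2, Xirp1, Fhl1 and Flnc kept their section of highest level under every scaling and choice of spots that was tried. Csrp3 moved to TAC-4w under the median of ratios and with cardiomyocyte genes as the total, and Actc1 moved to TAC-2w under the median of ratios. Ankrd1 moved to TAC-6w without mitochondrial and rRNA-like transcripts and as a mean over spots. Acta1 was the sole member whose level at TAC-6w was more than 1.5-fold that at TAC-4w. Xirp1 (1.52, 1.45 to 1.59) and Fhl1 (1.52, 1.45 to 1.59) were the members whose level at TAC-4w was more than 1.5-fold that at TAC-6w. Both lay just past this fold, with intervals that reached below it. The share of all genes past 1.5-fold between TAC-4w and TAC-6w was not counted.

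**Figure D1:**
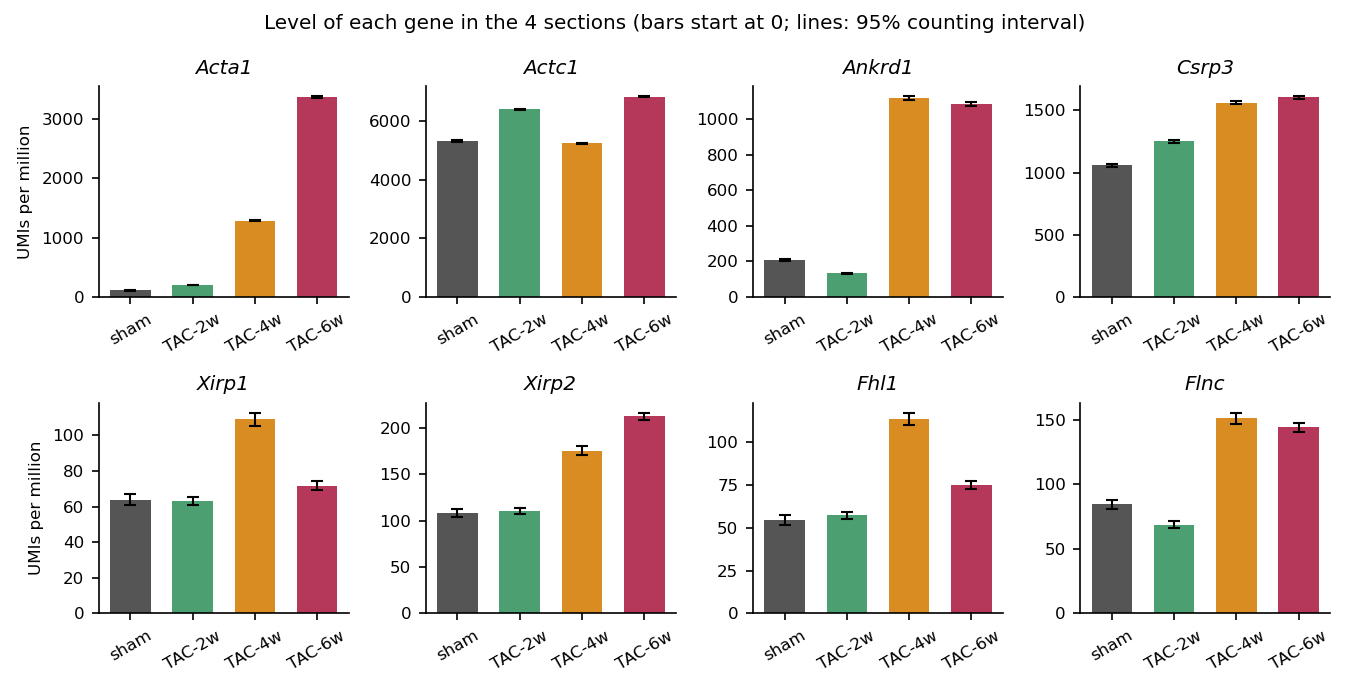
Levels of the 8 genes in the 4 sections, in CPM, with bars that start at 0, an axis of its own for each gene and lines for the exact Poisson 95% counting interval. Acta1 climbs from 109.9 to 3370.3 CPM, Ankrd1, Xirp1, Fhl1 and Flnc stand highest at TAC-4w, and the widest interval, that of Fhl1 in sham, reaches 5.37% of the level to one side.

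At least 1.5-fold above sham were 1 member at TAC-2w (Acta1) and then 6 at TAC-4w (all but Actc1 and Csrp3) and 5 at TAC-6w (Acta1, Ankrd1, Csrp3, Xirp2 and Flnc). Among all genes with at least 50 UMIs in either section, 4.95% were that much higher at TAC-2w and then 15.2% at TAC-4w and 17.6% at TAC-6w. Csrp3 lay just past this fold at TAC-6w (1.51), with an interval that reached below it (1.49 to 1.53). At least 1.5-fold below sham was 1 member at TAC-2w (Ankrd1) and none later, beside 3.27%, 2.5% and 0.962% of all genes. The median ratio of the members was 1.04, 1.75 and 1.61, and that of all genes 1.03, 1.16 and 1.24, on 11423, 11205 and 11952 genes. All-gene medians thus lay 0.05, 0.22 and 0.30 above sham on the log2 scale. Relative to the all-gene median, Acta1 was 1.75-, 10.1- and 24.8-fold above sham and Ankrd1 was at 0.621, 4.62 and 4.21, whereas Xirp1 at TAC-6w was at 0.911 and Actc1 at TAC-4w at 0.849. Higher genes made up 60.2%, 85.9% and 94.8% of those past 1.5-fold, against 47.8%, 63.3% and 70.8% under the median of ratios and 13.3%, 54.1% and 80.1% without mitochondrial and rRNA-like transcripts. With that total 3 members were at least 1.5-fold higher at TAC-4w (Acta1, Ankrd1 and Fhl1) and 3 at TAC-6w (Acta1, Ankrd1 and Xirp2). Of all genes, 7.49% at TAC-4w and 8.47% at TAC-6w were that much higher with that total.

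The load genes of other families ranked the sections as Ankrd1, Xirp1 and Flnc or as Fhl1 did, and unlike Acta1. Nppa (atrial natriuretic peptide) had 106, 136, 1919.7 and 580.2 CPM from sham to TAC-6w, and Nppb (B-type natriuretic peptide) had 67.3, 37.7, 367 and 171. Both were highest at TAC-4w, as was Myh7, at 18.1-, 5.46- and 174-fold sham. At TAC-6w these ratios were 5.47, 2.54 and 2.32, below the 30.7 of Acta1 and, for Nppb and Myh7, below the 5.21 of Ankrd1.

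Among other Z-disc and I-band genes, the share past 1.5-fold was above that of all genes most clearly at TAC-4w. Of 27 genes of that list with enough UMIs, 2 were at least 1.5-fold above sham at TAC-2w and 11 at TAC-4w, and of 29 at TAC-6w there were 7, beside 4.95%, 15.2% and 17.6% of all genes. Of this list 1 was lower at TAC-2w and none later, beside 3.27%, 2.5% and 0.962% of all genes. Their median ratios were 1.04, 1.42 and 1.31. At TAC-4w the highest were Pdlim3 (2.77), an α-actinin-binding protein, Des (2.11), the muscle intermediate filament desmin, and Ankrd23 (2.04), a relative of Ankrd1, and the lowest were Nexn (0.842), Lmcd1 (1.03) and Vcl (1.03). At TAC-6w Ankrd23 (2.29) was again among the highest, with Ankrd2 (7.13, 2.63 to 27.1), another member of the Ankrd1 family that was at only 0.154 CPM in sham, and Synpo2l (1.70), and the lowest were Palld (0.856), Nexn (0.903) and Ttn (1.00).

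The remaining thin-filament and actin assembly genes had counts of higher genes at or below the share of all genes. Of 18 with enough UMIs, none, 1 and 3 were at least 1.5-fold higher from TAC-2w to TAC-6w, beside 4.95%, 15.2% and 17.6% of all genes. At least 1.5-fold lower were 2, 2 and none, beside 3.27%, 2.5% and 0.962% of all genes. The counts of lower genes at TAC-2w and TAC-4w thus lay above the share of all genes. Their median ratios were 1.00, 0.968 and 1.12. Lmod2 (1.54), a leiomodin that elongates actin filaments, Cfl2 (1.44) and Tpm3 (1.39) were highest at TAC-4w, and Lmod3 (0.554), Tnnt1 (0.631) and the smooth muscle actin Acta2 (0.743) lowest. At TAC-6w the highest were the cytoplasmic actin Actg1 (1.74), Tpm3 (1.73) and Enah (1.55), and the lowest Nebl (0.867), Tnnt2 (0.875) and Tnni3 (0.878).

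None of the regulators known for these genes passed 1.5-fold in any section (14, 14 and 15 genes with enough UMIs). Of all genes, 4.95%, 15.2% and 17.6% were that much higher. The regulator medians of 1.07, 1.202 and 1.23 lay near the all-gene medians of 1.03, 1.16 and 1.24. At TAC-4w Nkx2-5 (1.48), Wwtr1 (1.40) and Mrtfb (1.32) were highest and Nfatc4 (0.876), Mrtfa (0.9301) and Mef2a (0.951) lowest. At TAC-6w Mrtfa (1.44), a co-factor of serum response factor, Wwtr1 (1.38), a co-factor of TEAD factors, and Mrtfb (1.38) were highest, and Mef2a (1.03), Yap1 (1.03) and Myocd (1.06) lowest. The 10 cardiomyocyte reference genes also stayed within 1.5-fold of sham, with medians of 1.10, 0.890 and 1.02. Actn2 (1.42), Pln (1.25) and Tnnt2 (1.08) were the highest of them at TAC-4w and Ckm (0.752), Ryr2 (0.790) and Tnni3 (0.811) the lowest. At TAC-6w Mybpc3 (1.29), Tnnc1 (1.24) and Actn2 (1.22) were highest, and Ryr2 (0.806), Tnnt2 (0.875) and Tnni3 (0.878) lowest.

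Within a section, Acta1 and Ankrd1 had no UMI in many spots of sham and a UMI in almost all spots at TAC-4w and TAC-6w. The share of spots with a UMI depends on the level of a gene. Among spots with at least 10000 UMIs (1065, 1921, 1061 and 1487 from sham to TAC-6w), the 10th percentile, median and 90th percentile of Acta1 were 0, 57.2 and 269 CPM in sham and 0, 112 and 459.8 at TAC-2w. They were 389.96, 1098 and 2522 at TAC-4w and 1562, 3269 and 5063 at TAC-6w, so that the 10th percentile at TAC-6w lay above the 90th of sham and TAC-2w. For Ankrd1 the same percentiles were 33.0, 161 and 414 in sham, 0, 97.6 and 283 at TAC-2w, 475, 943 and 1979 at TAC-4w and 573, 1010.2 and 1635 at TAC-6w. After thinning each spot to 5000 UMIs, which left out 270, 15, 34 and 299 shallower spots, 29.9% of spots held an Acta1 UMI in sham (27.6 to 32.4), 47.4% at TAC-2w (45.2 to 49.6) and then 96.8% at TAC-4w (95.7 to 97.7) and 100% at TAC-6w (99.8 to 100). Without thinning the shares were 55.6%, 84.1%, 99.8% and 99.95%. The share with an Ankrd1 UMI was 53.8%, 41.4%, 97.1% and 98.2% after thinning.

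The spread over spots beyond counting error was lower for these genes in the later sections. The coefficient of variation of Acta1 was 1.43 in sham, 1.37 at TAC-2w and then 0.736 at TAC-4w and 0.429 at TAC-6w, and that of Ankrd1 0.920, 0.863, 0.609 and 0.380. Actc1 varied little in every section (0.103 to 0.148), and so did Csrp3 (0.110 to 0.183), whereas Xirp1 (0.231 to 0.371), Xirp2 (0.263 to 0.534), Fhl1 (0.338 to 0.516) and Flnc (0.119 to 0.352) varied more in most sections, although Flnc in sham (0.119) lay below Actc1 and Csrp3 there. The thin-filament gene Tnnt2, for comparison, was at 0.0990 to 0.212.

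**Figure D2:**
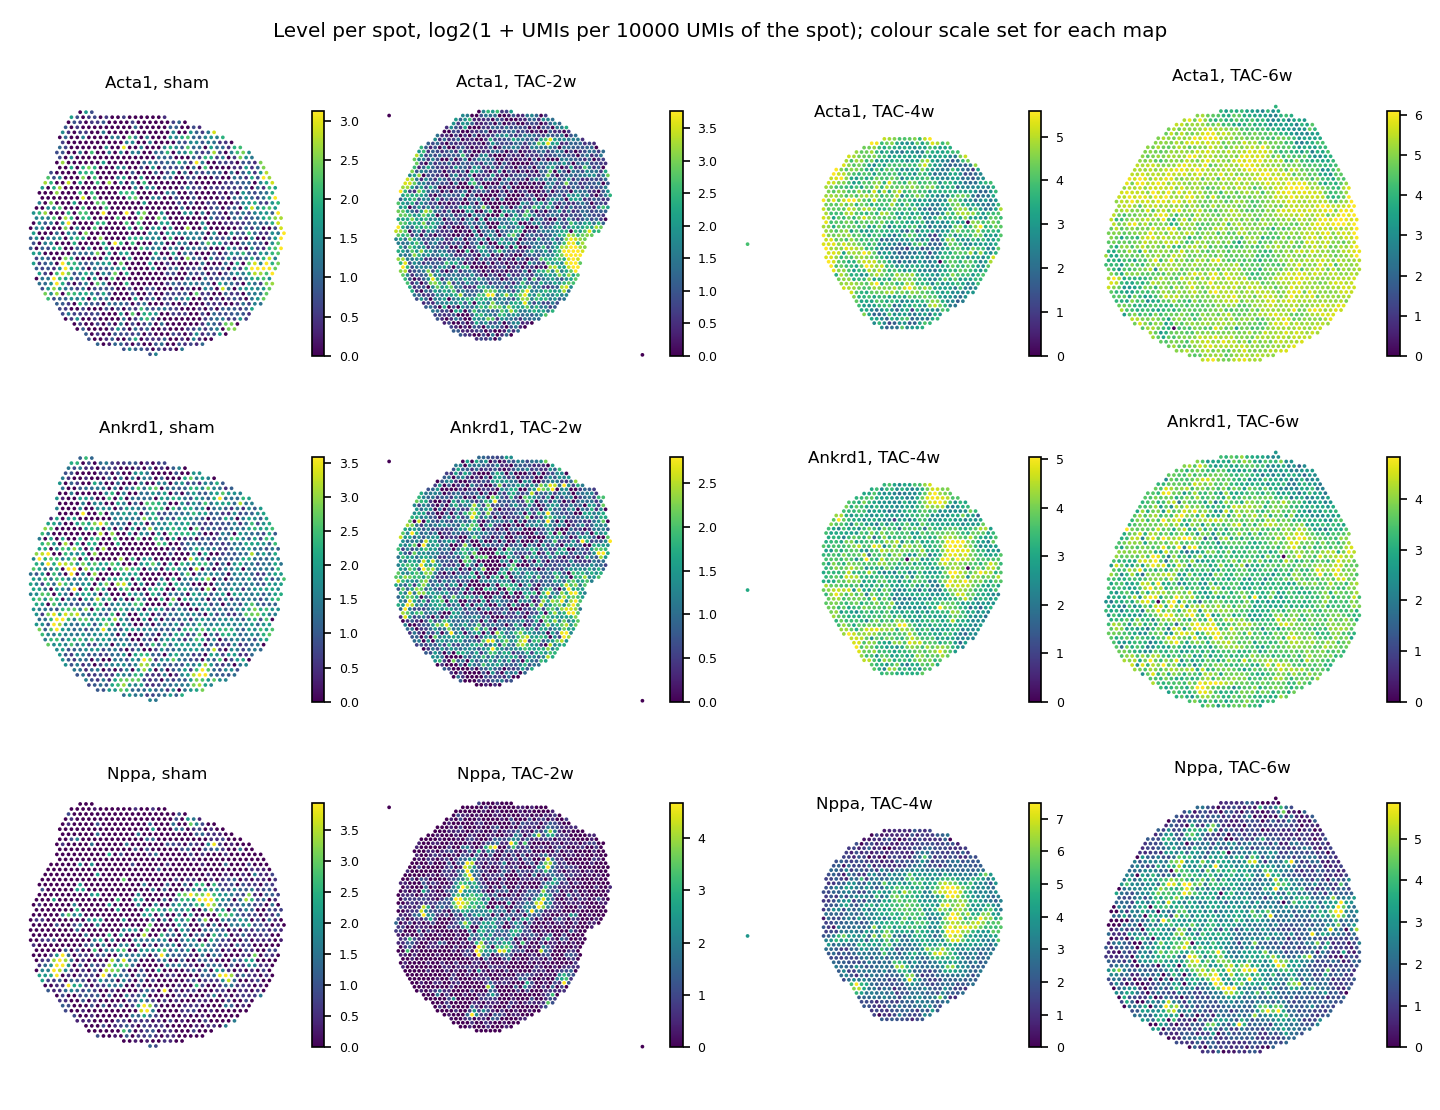
Maps of Acta1, Ankrd1 and Nppa over the spots of each section as log2(1 + UMIs per 10000 UMIs of the spot), with a colour scale of its own for each map, so that colours compare spots within a map only. Acta1 is at 0 in many spots in sham and above 0 in 99.95% of spots at TAC-6w, and at TAC-4w the brightest Acta1 spots lie nearer the outer edge than those of Nppa.

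Neighbouring spots had like levels of Acta1, Ankrd1 and Actc1, and much less so of the rest. Moran's I over the 6 neighbours of a spot (0 for no spatial order, near 1 for smooth patches) was 0.262, 0.520, 0.616 and 0.641 for Acta1 from sham to TAC-6w, 0.242, 0.359, 0.537 and 0.352 for Ankrd1 and 0.288, 0.387, 0.246 and 0.301 for Actc1. It was 0.0978 to 0.194 for Csrp3, up to 0.146 for Fhl1, 0.135 for Xirp2 and 0.101 for Flnc, all 3 at TAC-4w, and at most 0.0497 for Xirp1. Fewer UMIs per spot give a lower I, and thinning to 5000 UMIs lowered Acta1 to 0.192, 0.289, 0.471 and 0.566 and Ankrd1 to 0.142, 0.162, 0.326 and 0.247. Thinning evens the totals of spots and not the counts of a gene, so counting noise still differed between sections and genes.

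Acta1 and Ankrd1 had the highest correlation over spots of the 28 pairs of members in each of the 4 sections. Pearson's r of log values was 0.241 in sham (n = 1676 spots), 0.458 at TAC-2w (n = 2063) and then 0.359 at TAC-4w (n = 1228) and 0.463 at TAC-6w (n = 2193). The median over the 28 pairs was 0.0645, 0.0410, 0.0822 and 0.0546. The spots of a section share a library and differ in depth, and counting noise in single spots lowers r, so these values describe the sections and no p is given. Summed over tiles of neighbouring spots (n = 99, 126, 73 and 133 tiles), r of this pair was 0.603, 0.773, 0.465 and 0.8002, and given the level of the cardiomyocyte reference genes it was 0.241, 0.457, 0.358 and 0.440 over single spots. In tiles the pair was no longer the highest in sham, where Actc1 and Csrp3 had 0.653, or at TAC-4w, where Ankrd1 and Xirp2 had 0.559. Over sham spots thinned to 5000 UMIs, Actc1 and Csrp3 (0.146) also came before Acta1 and Ankrd1 (0.138).

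Over single spots that were not thinned, the other pairs were weaker. In tiles at TAC-4w, Csrp3 with Fhl1 (0.514), Xirp1 with Flnc (0.483) and Csrp3 with Flnc (0.479) also came before Acta1 with Ankrd1 (0.465). Ankrd1 and Xirp2 had r of 0.0795, 0.133, 0.281 and 0.185 over spots and 0.211, 0.527, 0.559 and 0.604 over tiles. Acta1 and Csrp3 had 0.0905, 0.204, 0.261 and 0.0532 over spots and 0.144, 0.552, 0.362 and −0.0420 over tiles. The sarcomeric actins hardly varied together over spots, with 0.0780, −0.0527, 0.149 and −0.0507. Over tiles they had 0.0889, −0.161, 0.0975 and −0.220. Given the level of the cardiomyocyte reference genes, their r over spots was 0.0725, −0.0405, 0.233 and 0.0105. The lowest of all pairs was Actc1 with Xirp2 at TAC-6w, −0.124 over spots and −0.490 over tiles.

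**Figure D3:**
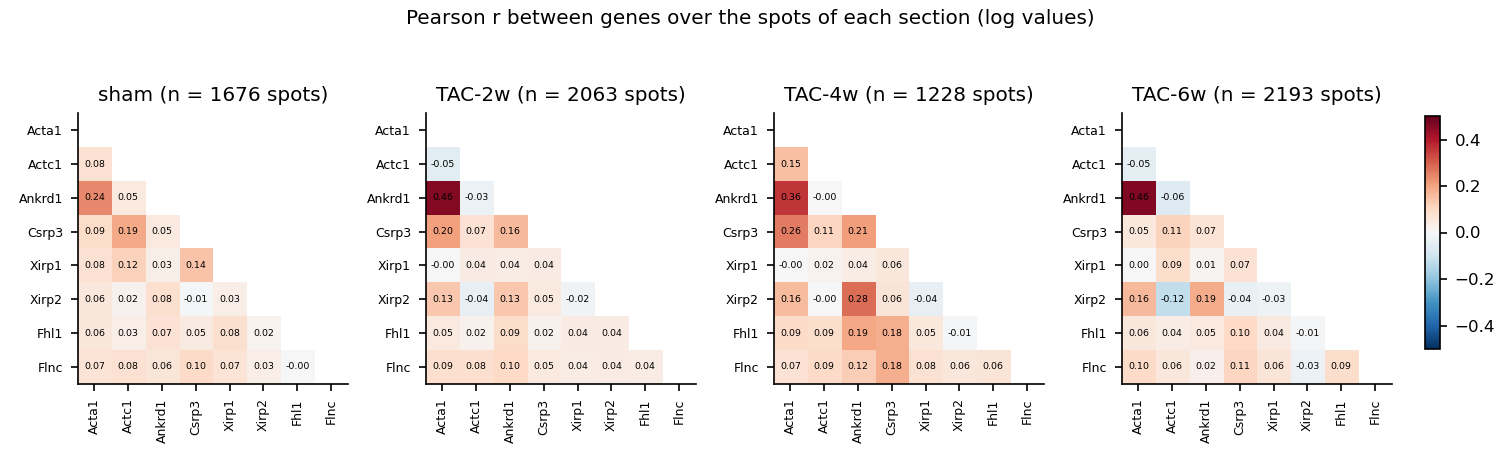
Pearson's r between the 8 genes over the spots of each section, on log values, with red for positive and blue for negative r and the value printed in each cell. The Acta1 and Ankrd1 cell is the darkest in every section (0.241 to 0.463), and most other cells are near 0.

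The spots with the most Acta1 and the most Ankrd1 overlapped unequally between sections. Among spots with at least 10000 UMIs, the top 10% by Acta1 and by Ankrd1 shared 33 of 106 spots in sham (31.1% of each), 83 of 192 at TAC-2w (43.2%) and then 18 of 106 at TAC-4w (17.0%) and 57 of 149 at TAC-6w (38.3%). At TAC-4w, the top spots for Ankrd1 shared 46.2% with those for Nppa, and the top spots for Acta1 shared 32.1% with those for Csrp3. With the top spots for Myh6, the adult fast myosin heavy chain, Acta1 shared 0 of 106, Ankrd1 1 and Csrp3 3. The other members shared more, with 7 for Flnc, 8 for Xirp2, 10 for Xirp1, 11 for Fhl1 and 14 for Actc1. Unrelated lists of the top 10% would share about 10% of their spots. Over all spots at TAC-4w, Ankrd1 with Nppa had r = 0.375, Acta1 with Nppa 0.00659, Acta1 with Myh6 −0.558 and Ankrd1 with Myh6 −0.382. With Nppb, however, r at TAC-4w was 0.382 for Acta1 and 0.356 for Ankrd1. The top spots for Acta1 shared 22.6% with those for Nppb at TAC-4w, and those for Ankrd1 31.1%. In the other sections Acta1 with Myh6 had −0.0441 (sham), −0.142 (TAC-2w) and −0.251 (TAC-6w), and Acta1 with Nppa had 0.138, 0.00430 and 0.298. Myh6, itself at 3770.3 CPM at TAC-4w against 7323 in sham, was chosen for this comparison after its values were seen.

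Among 3854 genes detected in at least 20% of the spots of every section, those most like each member by the mean of r over the 4 sections were also listed. For Acta1 these were Ptgds (0.401), Ankrd1 (0.380), Nppb (0.269), Myl12a (0.2496) and Myot (0.191), and for Ankrd1 they were Acta1, Nppb (0.244), the proteoglycan Bgn (0.241), Nppa (0.238) and Ankrd23 (0.217). Actc1 was most like genes of the contractile and energy apparatus, Myl2 (0.268), Myl3 (0.240), Atp5g3 (0.228), Atp2a2 (0.227) and Mybpc3 (0.224). Csrp3 was nearest to Myl12a (0.192), Actn2 (0.172), Acta1 (0.152), Hspb7 (0.149) and Myot (0.136), and Xirp2 to Ankrd1 (0.170), Acta1 (0.127), Bgn (0.108), Ttn (0.0976) and Col3a1 (0.0953). Fhl1 was nearest to genes of connective tissue, Mgp (0.128), Col3a1 (0.127) and Bgn (0.122), then S100a6 (0.117) and H2-D1 (0.114). Flnc (Myl12a, Ctsb, Csrp3, Col4a2 and Ndufa4, 0.101 to 0.112) and Xirp1 (Ckmt2, Ctsd, Atp5mpl and Cox6a1, 0.0929 to 0.101) had no near neighbour. At these low values likeness is weak, and it rests on spots that share a library and depth.

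Acta1 was higher at the tissue edge than inside in every section, by a ratio that was lower in the later sections. Edge spots, those with fewer than 6 neighbours over tissue, numbered 150, 170, 126 and 168, against 1526, 1893, 1102 and 2025 interior spots. The ratio of edge to interior was 1.91 in sham (1.75 to 2.09), 1.74 at TAC-2w (1.65 to 1.84) and then 1.68 at TAC-4w (1.63 to 1.72) and 1.10 at TAC-6w (1.08 to 1.12). Ankrd1 differed less, with 1.10, 1.17, 1.02 (0.983 to 1.05) and 0.890, and Actc1 had 0.939, 0.885, 1.06 and 0.944. Fhl1 was higher at the edge at TAC-4w (1.75, 1.60 to 1.91) and TAC-6w (1.38, 1.25 to 1.53), with intervals that included 1 at TAC-2w (0.963 to 1.24) and in sham (0.969 to 1.304). Csrp3 was higher at the edge throughout (1.15, 1.08, 1.29 and 1.27), whereas Nppa was lower (0.176, 0.162, 0.267 and 0.369).

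By distance from the edge, in shells of 0 to 1, 2 to 4, 5 to 8, 9 to 12 and 13 or more grid steps, Acta1 had 163, 115, 93.1, 53.7 and 69.2 CPM in sham and 301, 229, 217, 125 and 86.4 at TAC-2w. At TAC-4w the shells had 1580, 1119, 1510 and 1034 and then 596, with a second high shell at 5 to 8 steps, and at TAC-6w they had 3354, 3104, 3524, 3867 and 3065, with the highest level at 9 to 12 steps and the lowest in the innermost shell. Acta1 was therefore higher at TAC-6w than in sham in every shell. The innermost shell had fewer UMIs per spot than the outermost in every section (5560, 16950, 10056 and 13531.5 against 23450.5 to 32059) and more red blood cell transcripts (30653, 28392, 7144 and 11035 CPM). The part of these in the gradients was not tested.

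**Figure D4:**
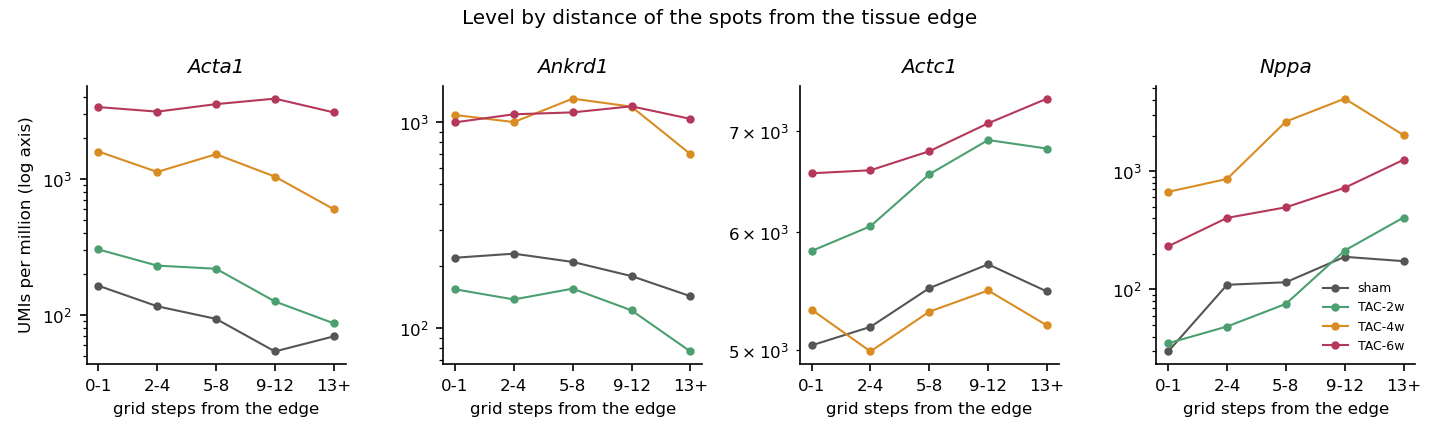
Levels of Acta1, Ankrd1, Actc1 and Nppa, in CPM on a log axis, by the distance of spots from the tissue edge in grid steps, with 1 line per section and 1 point per shell of spots. Acta1 goes down toward the centre in sham and at TAC-2w, from 163 to 69.2 and from 301 to 86.4, and stays between 3065 and 3867 at TAC-6w, while Nppa has its lowest level in the outermost shell of each section.

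The single-cell libraries gave the cell classes in which the members were counted, within limits. Few cardiomyocytes passed: 107, 75, 22 and 11 cardiomyocyte-like cells among 7965, 6293, 6531 and 5399 cells kept from sham to TAC-6w, in a cluster led by Myl7, Myl2, Tnni3 and Sln. Its level of the atrial light chain Myl7 was 14292 and 14419 CPM in sham and at TAC-2w and then 1805 at TAC-4w and 31.8 at TAC-6w, so that the class held atrial-type cells mainly in the sham and TAC-2w libraries, and levels within it are not compared between conditions. By the labels the sham and TAC-6w libraries shared a batch, and pairs of libraries shared 8 to 19 cell barcodes.

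Cardiomyocyte-like cells, few as they were, held more UMIs of Acta1, Actc1, Ankrd1 and Csrp3 than any other class, except for Acta1 at TAC-6w. Of the UMIs in cells kept, this class held 46.9%, 55.3%, 91.4% and 14.0% for Acta1 from sham to TAC-6w, 65.0%, 61.9%, 90.5% and 50.5% for Actc1, 58.0%, 54.9%, 91.8% and 41.5% for Ankrd1 and 73.5%, 70.2%, 79.2% and 57.4% for Csrp3. At TAC-6w 55.3% of Acta1 UMIs (146) were in fibroblast-like cells. Their level there was 7.96 CPM against 1177 in cardiomyocyte-like cells and 15.7 in macrophage-like cells. The fibroblast-like level thus lay below that of macrophage-like cells, and the origin of the UMIs in either class was not tested. Single cells weighed heavily, since 1 cell held 33.9% of the Acta1 and 48.7% of the Ankrd1 UMIs of the class at TAC-4w, and 1 cell 35.1% and 51.3% at TAC-6w.

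The remaining members were counted mostly outside the cardiomyocyte-like cells. Fhl1 UMIs were in fibroblast-like cells for 88.5%, 85.7% and 93.5% in sham, at TAC-2w and at TAC-6w, at 220.5, 182 and 142 CPM, far above the 1.68 to 3.82 in macrophage-like cells. At TAC-4w fibroblast-like cells numbered 194 against 2801 to 4277 in the other libraries and held 24.0% of Fhl1 UMIs at 209 CPM, while an unnamed cluster led by Gdf10, Comp and Fst held 40.2% at 324 and platelet-like cells 22.1% at 689. This unnamed cluster had 265 cells, 196 of them at TAC-4w. It had 4 of the 6 markers of its nearest class higher but none among its top 10 genes, so it got no name. Whether its cells are fibroblasts was not settled, so the fibroblast-like share at TAC-4w depends on how clusters were named. Platelet-like cells also had Fhl1 in the other libraries (568 in sham, 505 at TAC-2w and 518 at TAC-6w) but were 53, 10 and 13 cells there against 553 at TAC-4w. Flnc had 89.2%, 87.9%, 59.2% and 95.8% of its UMIs in fibroblast-like cells, at 39.0, 26.8, 26.6 and 31.0 CPM, and 0 to 4 UMIs in cardiomyocyte-like cells. Xirp1 was led by smooth muscle cell or pericyte-like cells, with 66.7%, 76.8%, 57.1% and 82.4% of UMIs at 45.5, 83.2, 116 and 108 CPM, on 52, 96, 8 and 14 UMIs. For Xirp2 the leading class changed from library to library, with fibroblast-like (37.3%), macrophage-like (39.8%), cardiomyocyte-like (41.8%) and fibroblast-like cells (53.7%), although as a level it had 71.9, 159, 491 and 127.3 in the cardiomyocyte-like cells. With so few cardiomyocytes among the cells, the shares by class show where the UMIs of the cells kept lay. They do not show which cells carry a gene in the heart. The barcodes left out held 20.5% to 45.1% of the Acta1 UMIs of a library. For Ankrd1 they held 19.7% to 45.6%, for Xirp1 46.1% to 62.2% and for Fhl1 4.96% to 12.5%.

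**Figure D5:**
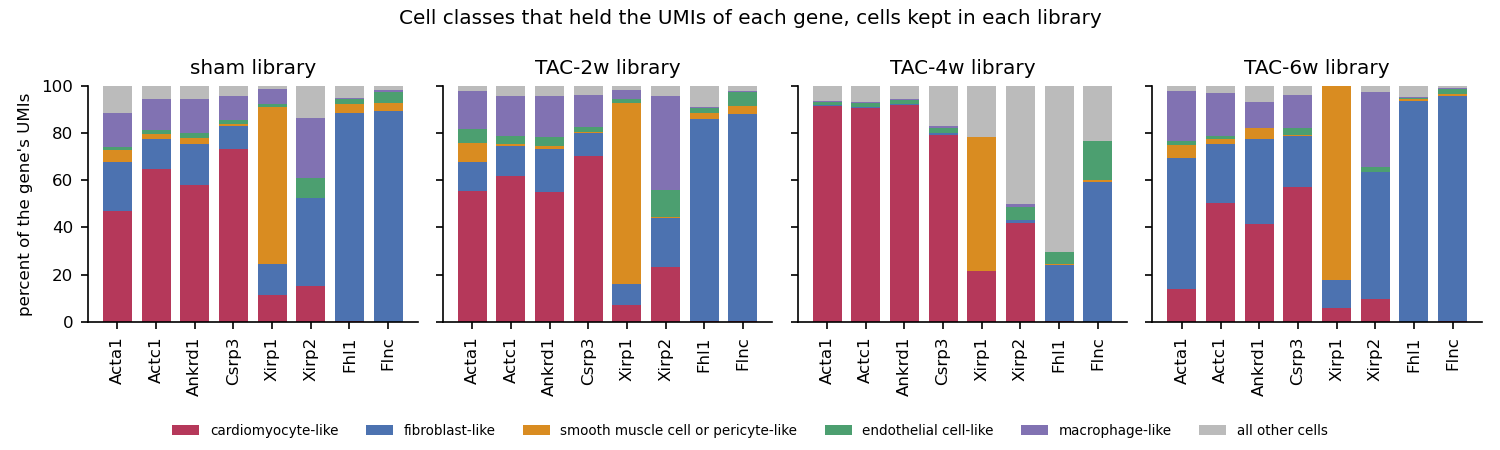
Percent of the UMIs of each gene held by each cell class among the cells kept in each library, as bars stacked to 100%. Red (cardiomyocyte-like) takes the largest part for Acta1, Actc1, Ankrd1 and Csrp3 except for Acta1 at TAC-6w (14.0%), blue (fibroblast-like) for Fhl1 and Flnc except for Fhl1 at TAC-4w (24.0%), and orange (smooth muscle cell or pericyte-like) for Xirp1. Unnamed clusters, which held 44.7% of Fhl1 UMIs at TAC-4w, are drawn among all other cells.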

How the data were processed

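The sections hold UMI counts per gene and spot, and the libraries UMI counts per gene and cell barcode, which the authors obtained by running Space Ranger or Cell Ranger against mm10 and deposited as raw counts. The processing notes name Space Ranger 1.3.1 and Cell Ranger 7.0.0 and the file headers Space Ranger 1.2.0 and Cell Ranger 6.0.0. For the libraries, the labels describe nuclei and the methods dissociated cells. The members and lists were chosen with earlier results of these data known.

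Levels are summed UMIs per 1000000 UMIs of a section or class, with exact Poisson intervals, ratios with exact conditional binomial intervals and shares with exact Clopper-Pearson intervals (95%), all for counting error only. Without replicates, no test was made. A member was counted as higher or lower at 1.5-fold. Background genes had at least 50 UMIs in either section, or in any section for the section of highest level. Spot values for r and Moran's I were log(1 + UMIs per 10000). Tiles were 4 rows by 8 columns of the grid, with at least 10 spots.

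The filter on cells asked for 200 to 6000 genes, 500 to 30000 UMIs and less than 15% mitochondrial counts. The 3.2% with the highest Scrublet score were removed (expected rate 7%). The rest were clustered without the 8 genes (30 components of 3000 variable genes, Leiden resolution 0.25) into 18 clusters, named from 6 fixed markers per type. Named genes were the members, the 5 genes most like each (1 of those for Xirp1 is not reported here), the 3 highest and 3 lowest of each list at TAC-4w and TAC-6w, and Nppa, Nppb and Myh7. Scripts ran under Python 3.11.15 with scanpy 1.11.5, leidenalg 0.10.2, scikit-learn 1.9.0, scipy 1.17.1, numpy 2.4.6, matplotlib 3.10.9 and pandas 2.3.3. Only the ratios with their intervals, Pearson's r and Moran's I were tested on simulated data.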

Additional observations from a re-analysis of the deposited data

Results flagged for a closer look

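Actc1, Ankrd1 and Flnc stood on opposite sides of sham in different TAC sections, each with a counting interval that left out 1. The ratio to sham was 1.21, 0.985 and 1.28 for Actc1 from TAC-2w to TAC-6w, 0.641, 5.36 and 5.21 for Ankrd1 and 0.815, 1.79 and 1.70 for Flnc. With 1 section per condition, the difference between the sections was not tested.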

How the results depend on the processing

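Other totals and choices of spots were tried for every level, and spots of at least 10000 UMIs, the loss of spots without neighbours and tiles were added after the data were seen. The median ratio of the members was 0.887, 1.47 and 1.40 without mitochondrial and rRNA-like transcripts, in order of time, 0.933 (TAC-2w) and 1.91 (TAC-4w) with cardiomyocyte genes as the total, 1.52 (TAC-4w) and, at the latest time, 1.33 under the median of ratios, and 1.53 (TAC-6w) in spots of 15000 to 30000 UMIs. Members at least 1.5-fold higher numbered 3 in either later section without mitochondrial and rRNA-like transcripts, beside 7.49% (TAC-4w) and 8.47% (TAC-6w) of all genes. They numbered 3 at TAC-6w under the median of ratios, beside 6.98% of all genes. At a fold of 2, 0 were higher and 0 lower at TAC-2w, 3 were higher at TAC-4w but 2 at TAC-6w. The share of all genes past a fold of 2 was not counted. With sections scaled by the median of ratios, 1 member was highest at TAC-2w and 2 at TAC-6w. Under this scaling the sections of highest level were not counted for all genes, so these counts have no background.

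The Acta1 ratio of TAC-6w to TAC-4w was 2.72 without mitochondrial and rRNA-like transcripts, 2.49 under the median of ratios, 2.39 with cardiomyocyte genes as the total, 2.42 as a mean over spots, 2.78 in interior spots, 1.98 in spots of 15000 to 30000 UMIs and 2.65 in those of at least 10000. The Acta1 percent of both actins was 2.95, 20.8 and 33.2 as a mean over spots from TAC-2w to TAC-6w, 1.79, 2.79, 18.7 and 32.7 in interior spots from sham to TAC-6w, and 1.89, 23.0 and 30.5 in spots of 15000 to 30000 UMIs for sham, TAC-4w and TAC-6w. The direction against sham turned for Xirp1 at TAC-6w (0.977 without mitochondrial and rRNA-like transcripts, 0.931 under the median of ratios) and for Actc1 at TAC-4w (1.08 with cardiomyocyte genes as the total, 1.02 as a mean over spots). The cause was not tested.

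The r of Acta1 with Ankrd1 was 0.138, 0.236 and 0.242 after thinning in sham, at TAC-2w and at TAC-4w, 0.367 in sham and 0.618 at TAC-6w in spots of at least 10000 UMIs, and 0.603, 0.773, 0.465 and 0.8002 over tiles, where the median over pairs was 0.151 at TAC-2w and 0.312 at TAC-4w. No paired analysis was possible because each condition had 1 section and 1 library, and for the same reason none could be left out. At a clustering resolution of 0.5 (26 clusters), many fibroblast cells had no class name, and unnamed clusters led Fhl1 and Flnc in every library and, at TAC-6w, Acta1 (40.2%) and Xirp2 (41.5%), while macrophage-like cells led Xirp2 in sham (30.1%). With all deposited barcodes, 25 levels of members in the libraries left the counting interval of the cells kept, and 7 stayed within it. Depth limits the single-spot values of Xirp1, Xirp2, Fhl1 and Flnc and the 11 to 107 cardiomyocyte-like cells.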
